A study of Arabidopsis thaliana with 6 samples.

Results

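The nuclear genes for the subunits of photosystem I, photosystem II, their light-harvesting antenna and the Rubisco small subunit were examined for peaks of the noncoding RNA HID1 in Arabidopsis thaliana seeds. Members were the protein-coding genes on chromosomes 1 to 5 whose symbol starts with LHCA, LHCB, PSA, PSB or RBCS and whose entry in the gene table describes a photosystem, antenna or Rubisco subunit. This gave 44 of the 27444 nuclear protein-coding genes, with 6 LHCA, 9 LHCB, 12 PSA, 13 PSB and 4 RBCS genes. A further 3 genes with a matching symbol were left out, since PSAT and PSAT1 encode other enzymes and the entry of PSB27 holds no description.

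The assay was ChIRP (chromatin isolation by RNA purification), in which DNA cross-linked to an RNA is pulled down with antisense probes, here biotinylated probes that cover HID1. The 6 libraries form 3 groups of 2, namely HID1 ChIRP, mock ChIRP with unlabelled probes, and input. All came from seeds of the Col-0 ecotype, the standard laboratory strain, in which phytochrome B was switched on with 5 min of red light before 48 h in darkness. The 2 HID1 ChIRP libraries were analysed, replicate 1 from seeds fixed with 1% formaldehyde, which is reversible, and replicate 2 from seeds fixed with 1% glutaraldehyde, which is not. They are called the formaldehyde and the glutaraldehyde library below. The mock and input groups were not used here, so a peak is a call by the authors' peak caller and its level over unlabelled probes is unknown. No mutant of HID1 and no seeds with phytochrome B switched off are among these samples. The peak lists give positions on DNA and no RNA levels, so the tissue could not be checked by its marker genes.

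Photosystem II splits water with light energy, photosystem I passes the electrons on to ferredoxin, and the LHCB and LHCA proteins collect light for them. Rubisco, whose small subunit is encoded in the nucleus and whose large subunit is encoded in the chloroplast, fixes carbon dioxide. The nuclear genes of this set are known for strong induction by light in seedlings, where phytochromes activate them and phytochrome-interacting factors hold them back in darkness. HID1 itself is known as a promoter of seedling development in red light.

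The formaldehyde library held 4557 peaks and the glutaraldehyde library 6306. A score is the caller's value for a peak, larger for a stronger call, and ranks are those within its own list. The locus of HID1, AT2G35747 by prior knowledge, lay in a peak of both libraries, with rank 23 in the formaldehyde list and rank 1 in the glutaraldehyde list. Each cross-linker has 1 library, so no test was made, and the counts describe these libraries. The read depth behind the peaks is unknown.

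A member was counted when a peak met its body or the 1 kb on either side. With formaldehyde this held for 7 of 44 members (15.9%), against 16.9% of all nuclear protein-coding genes. With glutaraldehyde it held for 17 of 44 (38.6%), against 25.9% of all. The formaldehyde share thus lay near the background, and the glutaraldehyde share lay above it, with no replicate to give the spread of such a share. At least 1 library had a peak at 20 members (45.5%, against 38.0% of all), and both had one at 4 members (9.09%, against 4.84% of all). In 0 of the 44 members did peaks of both libraries overlap each other, near the 1.77% of all genes that showed this. The other 24 members had no peak of either library.

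**Figure D1:**
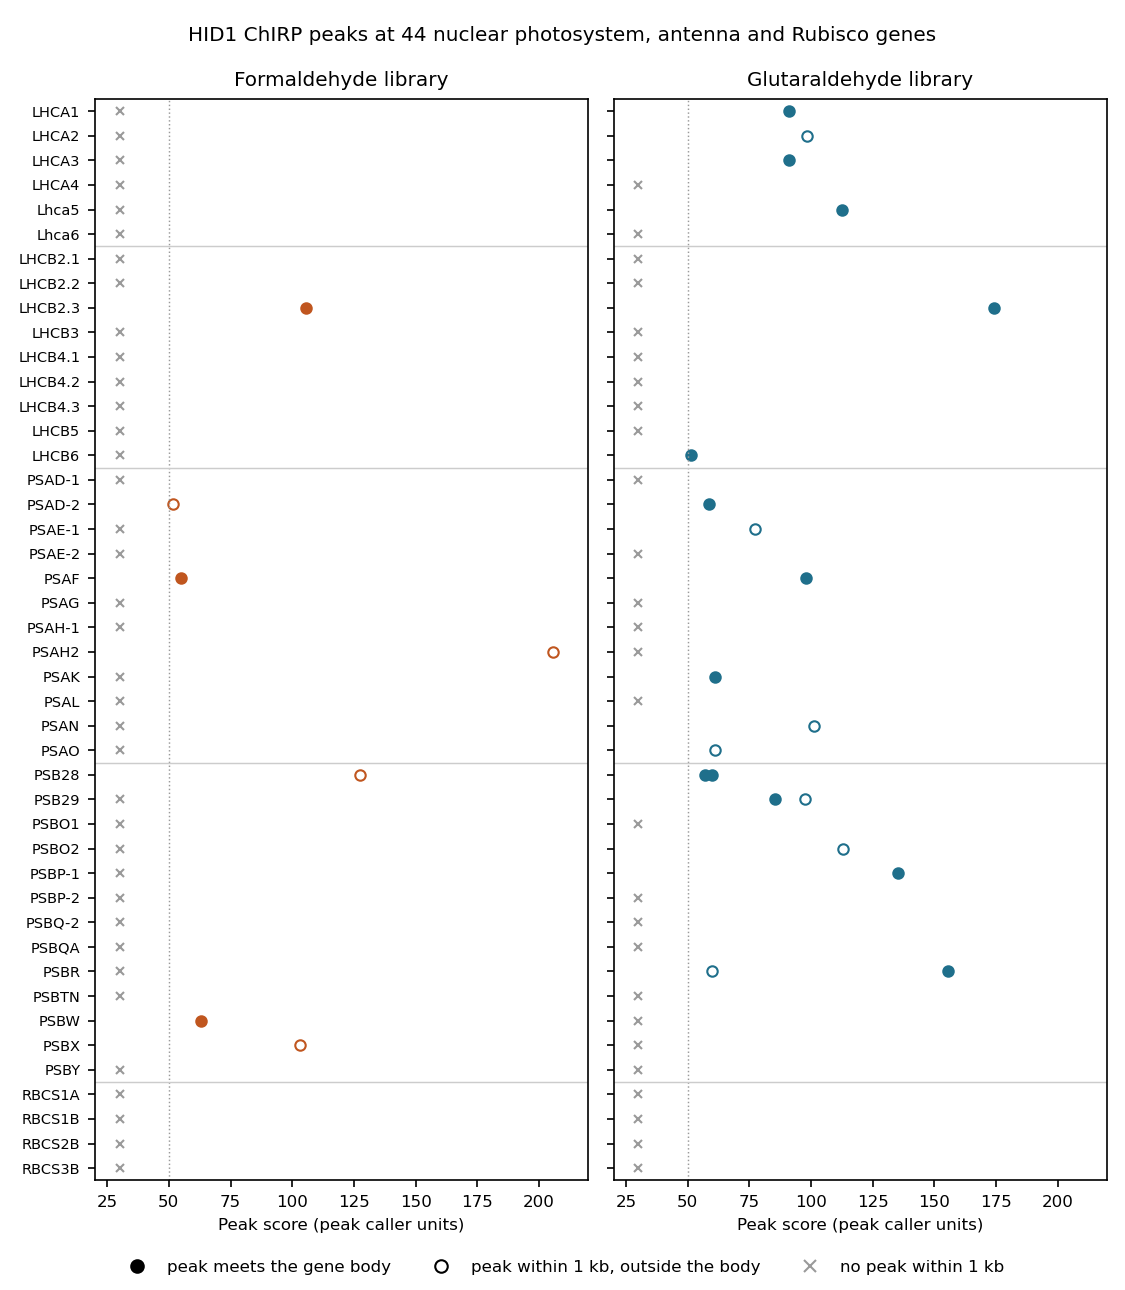
Score of every peak at the 44 members in the formaldehyde library (left) and the glutaraldehyde library (right), with 1 row per gene. Filled points are peaks that meet the gene body, open points lie within 1 kb of it, crosses mark genes with no peak and the dotted line is a score of 50. Formaldehyde points stand at 7 genes and glutaraldehyde points at 17, and all RBCS rows hold crosses.

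Members are short genes, with a median length of 1442 bp (range 720 to 2154) against 2078 bp for all protein-coding genes, so that their windows offer fewer positions. Among the 11984 protein-coding genes within the same range of length, 14.6% had a formaldehyde peak and 22.6% a glutaraldehyde peak. In the gene body alone, 3 members had a formaldehyde peak (6.82%, against 11.4% of all genes and 8.44% of those in the length range). Glutaraldehyde peaks met the body of 12 members (27.3%, against 16.7% of all genes and 13.0% of those in the length range). In the gene body the formaldehyde share, from 3 genes, thus lay near that of the length range, and the glutaraldehyde share lay above it. With either library, 13 members had a peak in the body (29.5%, against 25.7% of all genes). Flanks of 500 bp gave 5 members with formaldehyde (11.4%, against 14.2% of all) and 14 with glutaraldehyde (31.8%, against 21.4%), and flanks of 2 kb gave 9 (20.5%, against 22.5%) and 19 (43.2%, against 34.4%).

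**Figure D2:**
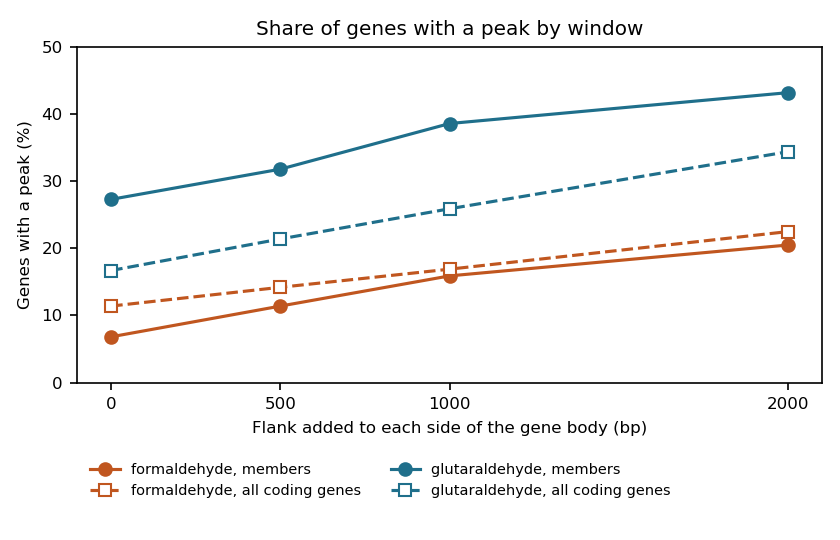
Share of genes with a peak (vertical axis, %) against the flank added to each side of the gene body (horizontal axis, bp). Filled points with solid lines are the 44 members and open squares with dashed lines all nuclear protein-coding genes. Glutaraldehyde shares of members lie above those of all genes at each window, from 27.3% in the body to 43.2% with 2 kb, and formaldehyde shares lie below them, from 6.82% to 20.5%.

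Photosystem I subunits held peaks at 7 of 12 genes, against 38.0% of all genes, with 3 in the formaldehyde and 6 in the glutaraldehyde library. PSAF, which docks the electron carrier plastocyanin, was one of the members with peaks of both libraries in its body. Its formaldehyde peak spanned 11214193 to 11215347 on chromosome 1 (TAIR10, as all positions here) and scored 55.0, rank 3870 of 4557. Its glutaraldehyde peak spanned 11215475 to 11216426 and scored 97.9, rank 1528 of 6306. The peaks lay 127 bp apart and covered opposite parts of the gene, 45.8% and 45.5% of the body. The formaldehyde peak also met LBD4.

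PSAD-2, 1 of 2 genes for the subunit that binds ferredoxin, was also met in both libraries. A glutaraldehyde peak with a score of 58.6 covered 42.5% of its body, on chromosome 1 from 753857 to 754458, and also met AT1G03140. The formaldehyde peak, with a score of 51.7, close to the lowest in the list at 50.02, lay 509 bp outside the body. It met the neighbouring gene RAB28. The highest formaldehyde score at any member was that of a peak beside PSAH2, a subunit at the docking site of the mobile antenna. It scored 206, rank 176 of 4557, and spanned 19453384 to 19454252 on chromosome 1. This peak lay 546 bp from PSAH2 and met the body of AT1G52220. The nearest glutaraldehyde peak was 6610 bp from PSAH2.

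The remaining photosystem I genes were met with glutaraldehyde alone. PSAK, a membrane subunit beside the antenna, had a peak over 47.4% of its body with a score of 61.2. PSAN, a subunit on the lumen side near the plastocyanin site, had a peak with a score of 101 at 446 bp. PSAO, a small membrane subunit, had one with a score of 61.3 at 793 bp, and PSAE-1, a stromal subunit beside the ferredoxin site, one with a score of 77.3 at 980 bp. The peaks near PSAN and PSAO met the neighbouring genes AT5G64030 and DCP1. PSAD-1, PSAE-2, PSAG, PSAH-1 and PSAL had no peak within 1 kb.

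Photosystem II genes held peaks of either library at 7 of 13 (53.8%, against the same 38.0%). The formaldehyde library had peaks at 3 of them (23.1%, against 16.9% of all genes) and the glutaraldehyde library at 5 (38.5%, against 25.9%). Among the proteins that cover the water-splitting site, PSBP-1 had a glutaraldehyde peak wholly inside its body, on chromosome 1 from 2047681 to 2048982. It covered 72.1% of the gene, more than any other peak at a member, and had a score of 135 and rank 615 of 6306. The nearest formaldehyde peak was 36364 bp away. PSBR, a small protein of the same site, had a glutaraldehyde peak with a score of 156 that covered 16.6% of its body and extended into RECA1, and another with a score of 59.8 at 692 bp. PSBO2, a form of the manganese-stabilising protein, had a glutaraldehyde peak with a score of 113 at 957 bp. That peak met the cold-response gene COR413-PM2 and the noncoding entry AT3G50825. PSBO1, PSBP-2, PSBQ-2 and PSBQA had none.

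The small membrane subunits PSBW and PSBX were met with formaldehyde and not with glutaraldehyde. At PSBW a formaldehyde peak with a score of 63.2 covered 31.6% of the body and reached into LGT5, while the nearest glutaraldehyde peak lay 1256 bp away. At PSBX a formaldehyde peak with a score of 103 lay 196 bp away and met RPA1A. PSBY, another small membrane subunit, and PSBTN, a small lumenal one, had no peak within 1 kb. PSBP-2, PSBY and PSBQ-2 were among the 5 members without a peak that lay closest to one, with formaldehyde peaks at 2777, 2831 and 3394 bp.

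The last photosystem II entries belong to factors of assembly more than to the finished complex. PSB28, which associates with photosystem II during assembly, had 2 glutaraldehyde peaks in its body, on chromosome 4 from 14149411 to 14150058 and from 14150071 to 14150761, with scores of 57.2 and 59.7. A formaldehyde peak with a score of 128, rank 686 of 4557, lay 418 bp from the gene and 819 bp from the nearer of these. It met AT4G28670. PSB29, also called THF1 and needed for thylakoid formation, had a glutaraldehyde peak with a score of 85.4 inside its body. Another, with a score of 97.5, lay at 904 bp and met ERF53. The peak inside its body also met the neighbouring gene DGK5 and the noncoding entry AT2G07345.

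The antenna genes of photosystem I were met at 4 of 6 loci, 4 with glutaraldehyde, where 25.9% of all genes had a peak, and 0 with formaldehyde, where 16.9% did. With 6 genes, a count of 0 is near that background. LHCA1, LHCA2 and LHCA3, parts of the antenna belt, had scores of 91.3, 98.4 and 91.0. The peaks at LHCA1 and LHCA3 lay wholly inside the gene and covered 39.7% and 46.5% of it, and that at LHCA2 lay 458 bp outside. Lhca5, a minor antenna protein known to link photosystem I to the chloroplast NADH dehydrogenase-like complex, had a peak over 45.5% of its body with a score of 113. No other protein-coding body was met by these 4 peaks. LHCA4, of the main belt, and Lhca6, the other minor protein, had none. The nearest formaldehyde peak to any LHCA gene was 2407 bp away, at Lhca6.

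The antenna genes of photosystem II were met at 2 of 9 loci (22.2%, against 38.0% of all genes in either library). LHCB2.3, a gene for a protein of the light-harvesting trimers, had the highest glutaraldehyde score of all members. That peak spanned 10256523 to 10257408 on chromosome 3 and scored 174, rank 221 of 6306. It lay wholly inside the gene and covered 55.9% of it. A formaldehyde peak that spanned 10257483 to 10258543 and scored 105, rank 1101 of 4557, began 74 bp further on and met the 7 bp at the upper edge of the gene. LHCB2.3 was the only member that scored at least 100 with both cross-linkers, against 0.361% of all protein-coding genes. The entry AT3G27700 overlaps LHCB2.3 in the gene table and was met by both peaks, so the gene to which they belong cannot be told apart here.

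LHCB6, which encodes the minor antenna protein CP24, had a glutaraldehyde peak with a score of 51.5, close to the lowest in that list, over 14.5% of its body. It also met AT1G15825 and AT1G15830. LHCB2.1, LHCB2.2, LHCB3, LHCB5 and the LHCB4.1, LHCB4.2 and LHCB4.3 genes, which encode further trimer proteins and the minor proteins CP26 and CP29, had no peak. Of these, LHCB5 came nearest, with a glutaraldehyde peak at 1160 bp, just outside the window, where PSAE-1 at 980 bp and PSBO2 at 957 bp lay just inside it.

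None of the 4 Rubisco small subunit genes had a peak, a count too small to set against the 38.0% of all genes. RBCS3B, RBCS2B and RBCS1B stand in a row on chromosome 5, 2264 and 1095 bp apart, and the nearest peaks to the row lay beside RBCS3B, at 6702 bp with formaldehyde and 4596 bp with glutaraldehyde. RBCS1A, on chromosome 1, was 48761 bp from the nearest formaldehyde peak and 24471 bp from the nearest glutaraldehyde peak.

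**Figure D3:**
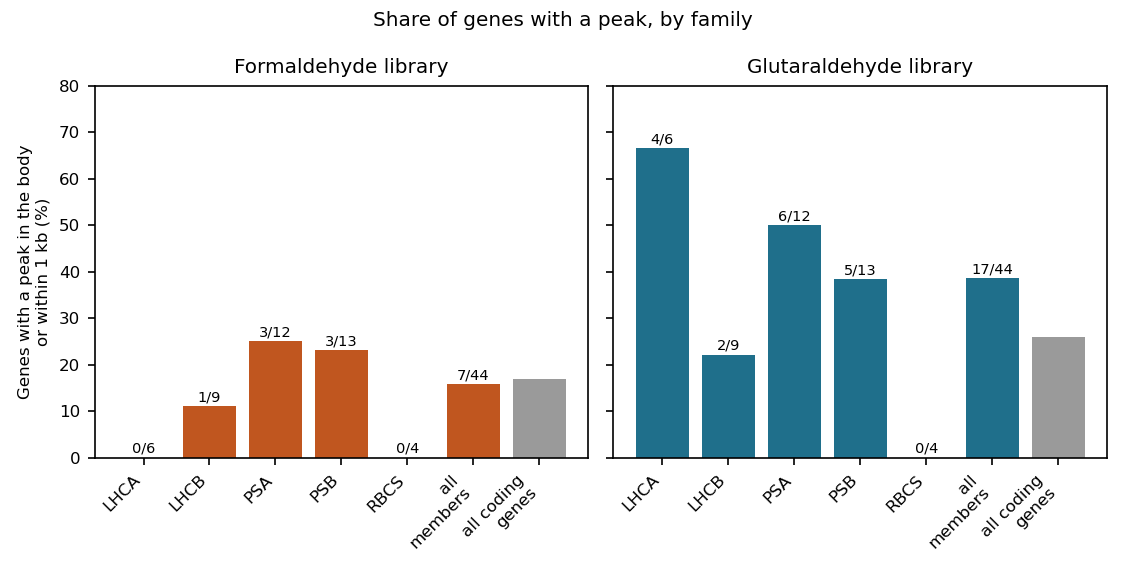
Share of genes (vertical axis, %) that had a peak, in the body or up to 1 kb away, in the formaldehyde library (left) and the glutaraldehyde library (right). Coloured bars are the 5 gene families and all members, with counts above them, and the grey bar is all nuclear protein-coding genes. LHCA has 0 of 6 genes with formaldehyde and 4 of 6 with glutaraldehyde, and RBCS 0 of 4 in both.

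The 7 formaldehyde peaks and the 20 glutaraldehyde peaks differed in how they lay on the genes. Each of the 7 formaldehyde peaks met the body of another protein-coding gene, none lay wholly inside a member, and 1 of the 7, at PSAF, had its midpoint nearest to the member. Of the 20 glutaraldehyde peaks, 13 met the member's body, 6 lay wholly inside it and 11 met no other protein-coding body. Bodies met and peaks wholly inside were not counted for peaks at all protein-coding genes, so these counts have no background. The part of peak width and gene length in these counts was not tested. The midpoint was nearest to the member for 12 of the 20. Ties counted for each tied gene, as at LHCB2.3, whose glutaraldehyde peak was equally near AT3G27700. Of the members with a peak, 14.3% with formaldehyde and 64.7% with glutaraldehyde were the nearest gene to a peak's midpoint, against 69.1% and 69.5% of all protein-coding genes with a peak. Counted in this way, 1 member had a formaldehyde peak (2.27%, against 11.7% of all) and 11 had a glutaraldehyde peak (25.0%, against 18.0%).

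**Figure D4:**
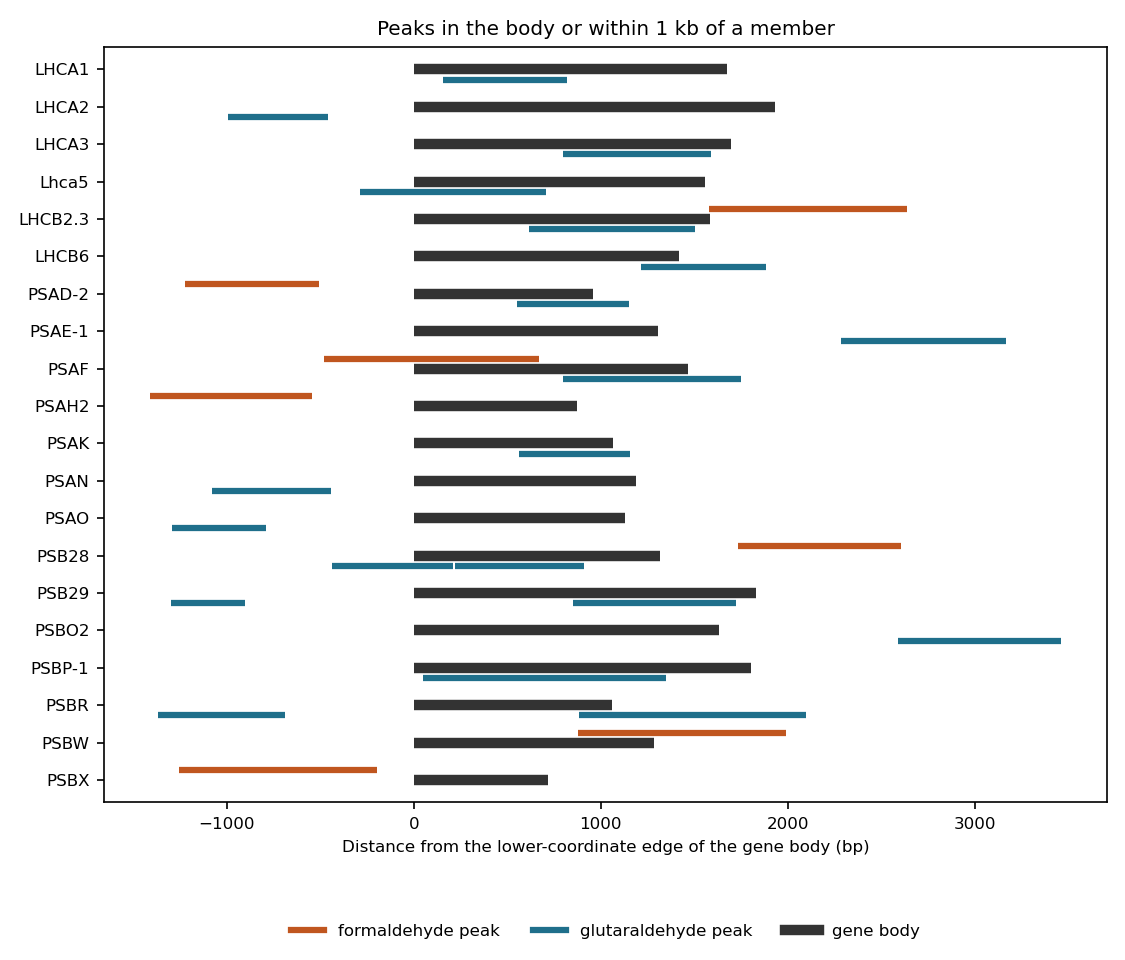
Position of peaks at the 20 members with a peak, as distance in bp from the lower-coordinate edge of the gene body. Black bars are gene bodies, orange bars above them formaldehyde peaks and blue bars below them glutaraldehyde peaks. At PSAF and LHCB2.3 the peaks of the libraries stand side by side, 127 and 74 bp apart, and at no gene do they overlap.

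The gene table gives no strand, so it is not known which of these peaks lie before a gene's start and which after its end. Formaldehyde peaks at members had a median width of 1061 bp and glutaraldehyde peaks of 683.5 bp, against 849 and 630 bp in the whole lists.

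With flanks of 1 kb, median scores at members lay above those of all peaks at protein-coding genes. The highest scores at any protein-coding gene were 446.79 with formaldehyde and 2149.64 with glutaraldehyde. The 7 formaldehyde peaks had a median score of 103 (range 51.7 to 206), against 72.6 for all peaks at protein-coding genes, and the 20 glutaraldehyde peaks had a median of 91.1 (range 51.5 to 174), against 72.5. The 3 formaldehyde peaks that met a member's body had a median of 63.2, below the 72.7 of all formaldehyde peaks that met a protein-coding body. For glutaraldehyde peaks that met a body, the medians were 91.0 at members and 72.7 at all protein-coding genes. At a score of 100 or more, 4 members had a formaldehyde peak (9.09%, against 4.31% of all) and 6 a glutaraldehyde peak (13.6%, against 6.60% of all). These were PSAH2, PSBX, LHCB2.3 and PSB28 with formaldehyde and PSBP-1, Lhca5, PSBR, LHCB2.3, PSBO2 and PSAN with glutaraldehyde. All of those formaldehyde peaks had their midpoint nearest to another gene, as had the glutaraldehyde peaks at PSBR, PSBO2 and PSAN.

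Taken over all members, with or without a peak in the window, the median distance to a peak was close to that of all genes. The median distance to the nearest formaldehyde peak was 9193 bp for members and 8304.5 bp for all protein-coding genes, and to the nearest glutaraldehyde peak 4246 and 4362 bp. At 5 kb, 54.5% of members and 53.5% of all genes had a glutaraldehyde peak.

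**Figure D5:**
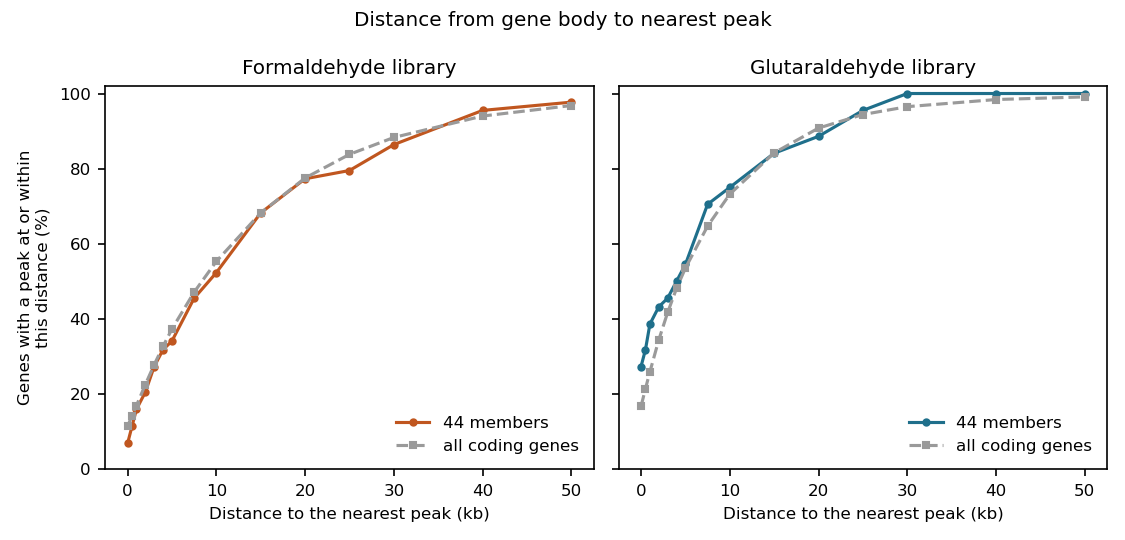
Cumulative share of genes (vertical axis, %) with a peak at or within a given distance of the gene body (horizontal axis, kb), for the formaldehyde library (left) and the glutaraldehyde library (right). Coloured lines are the 44 members and grey dashed lines all nuclear protein-coding genes. With glutaraldehyde the lines part at short distance, 38.6% against 25.9% at 1 kb, and lie together at 15 kb, 84.1% against 84.2%.

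Peaks were spread unevenly over the chromosomes. On chromosome 1, 3 of 14 members had a formaldehyde peak (21.4%, against 15.9% of all protein-coding genes there) and 9 of 14 a glutaraldehyde peak (64.3%, against 25.4%). On chromosomes 2 to 5 together, 4 of 30 members had a formaldehyde peak (13.3%, against 17.3% of all there) and 8 of 30 a glutaraldehyde peak (26.7%, against 26.1%). Off chromosome 1 the shares of members thus lay near or below the background in both libraries. Chromosome 5 held 1 of 7 members with a peak, PSAN, against 39.3% of all genes there. The 7 include the neighbouring RBCS3B, RBCS2B and RBCS1B. The members on chromosome 1 lie 344363 bp or more apart, so no peak served more than 1 of them.

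Several subunits are encoded by more than 1 gene. In the 6 pairs PSAD, PSAE, PSAH, PSBO, PSBP and PSBQ and in the LHCB2, LHCB4 and RBCS groups, 6 of the 22 copies had a peak, and no group had a peak at more than 1 copy. The copies met were PSAD-2, PSAE-1, PSAH2, PSBO2, PSBP-1 and LHCB2.3, and no copy was met for PSBQ, LHCB4 and RBCS. Of the 22 members outside these groups, 14 had a peak, and the share of all protein-coding genes with a peak in either library was 38.0%. The groups were formed from the symbols after the peaks had been seen, and no other gene groups were counted to set beside them. Among related genes outside the members, HEMA1 and HEMA2 both had a peak, as did GSA1 and GSA2. ELIP1 had a peak and ELIP2 none, and CHLI1 and CHLI2 had none. Reads from near-identical copies can be placed on any of them or dropped, no source used here states how such reads were handled, and their part in the counts was not tested.

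The main antenna genes of photosystem II, LHCB1, stand in the gene table under other symbols and so outside the rule. Of 9 such antenna and light-stress relatives, 2 had a formaldehyde peak (22.2%, against 16.9% of all genes) and 2 a glutaraldehyde peak (22.2%, against 25.9%). CAB1 had a glutaraldehyde peak within 1 kb with a score of 189.5, higher than any glutaraldehyde score at a member. CAB2 and CAB3, its neighbours on chromosome 1, were both counted through 1 formaldehyde peak that spanned 10474139 to 10474753, scored 54.5 and met the body of CAB2. ELIP1, an early light-induced protein, had a glutaraldehyde peak in its body with a score of 170.1. LHB1B1, LHB1B2 and NPQ4, which encodes the photosystem II protein of heat dissipation, had none.

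The other steps of photosynthesis are read against the same shares of all protein-coding genes, 16.9% with formaldehyde and 25.9% with glutaraldehyde. Of 15 genes for electron transport and the chloroplast ATP synthase, 1 had a formaldehyde peak (6.67%) and 7 a glutaraldehyde peak (46.7%), among them PGRL1A of cyclic electron flow with a score of 154. FNR2, which encodes a ferredoxin-NADP reductase, had a glutaraldehyde score of 90.5. The ATP synthase genes ATPC1, ATPD and PDE334 had glutaraldehyde scores of 109.9, 85.5 and 89.6, and ATPC1 also a formaldehyde score of 52.8. Of 15 Calvin cycle genes the counts were 2 (13.3%) and 4 (26.7%), with the highest score, 226, at a glutaraldehyde peak beside SBPASE, an enzyme that regenerates the acceptor of carbon dioxide. The other named genes of the cycle were FBA1, an aldolase, and CP12-2, a regulator, with glutaraldehyde scores of 86.5 and 95.0, and GAPA-2, a dehydrogenase, and CP12-3 with formaldehyde scores of 105 and 68.0. Of 23 chlorophyll synthesis genes they were 3 (13.0%) and 7 (30.4%). HEMA1 and HEMA2, which make the first committed step of that pathway, had glutaraldehyde scores of 74.8 and 147, and HEMA1 also a formaldehyde score of 130 in its body. GSA1 and GSA2, the next enzymes, had glutaraldehyde scores of 121 and 135, and HEMC, further along the pathway, one of 96.9.

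Of 20 genes for assembly and import, 1 had a formaldehyde peak (5.0%) and 7 a glutaraldehyde peak (35.0%). The highest scores were those of PSB27, a photosystem II assembly protein, with 189.7 in its body, and of CPFTSY and CPSRP54, which deliver antenna proteins to the thylakoid, with 168 and 136. HCF173, which acts in the synthesis of a photosystem II core protein, had a glutaraldehyde score of 87.0, and LPA3, an assembly factor, the formaldehyde peak, with a score of 92.8. Of 13 regulators 4 had a formaldehyde peak (30.8%) and 4 a glutaraldehyde peak (30.8%), so that the formaldehyde share was the highest of the 6 lists. GLK1, listed as GPRI1, and GNC, transcription factors of chloroplast development, had glutaraldehyde scores of 90.4 and 105, and the plastid sigma factor gene SIGC one of 113. STN7, the kinase that phosphorylates the mobile antenna, had a formaldehyde score of 79.6, and the sigma factor gene SIGE one of 70.3. Over all 95 genes of these lists, 13.7% had a formaldehyde peak, against 16.9% of all protein-coding genes, and 32.6% a glutaraldehyde peak, against 25.9%. Overlapping peaks of both libraries were found at 0 of the 95, against 1.77% of all genes, which is near that background.

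The chloroplast genome carries 21 further photosystem and Rubisco large subunit genes in the gene table. Neither list held a peak on the chloroplast genome. No source used here states whether reads from it were kept before peak calling.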

How the data were processed

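ChIRP libraries were made from 0.3 g of seeds each, fixed for 20 min, and read in pairs of 150 bp, per the labels. The deposited files are 1 peak list per HID1 ChIRP library, with chromosome, start, end and the peak caller's score of each peak. Tools listed in the submitters' processing notes are MACS 1.4.2 and Bowtie2 2.1.0, with TAIR10 as the genome build. Sources used here state neither the control used for calling nor the depth, nor how duplicate or multiply mapped reads were treated. A deeper library yields more and weaker calls.

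Genes came from the RefSeq table of TAIR10.1, whose nuclear coordinates equal those of TAIR10 from background knowledge. With the table shifted by 2 kb either way, the share of formaldehyde midpoints inside protein-coding bodies fell to 47.3% and 48.0%, against 61.4% unshifted. That of glutaraldehyde midpoints moved less, to 57.9% and 58.9%, against 60.9%. Printed positions are those of peaks, counted from 1. No sequences were given, so promoter motifs were not searched. A peak counts for a gene if it meets the body or the 1 kb on either side by at least 1 bp. Overlaps were computed with pandas 2.3.3 and the overlap code was checked on constructed intervals.

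Members and lists were chosen with earlier results of these data known. Of 111 list names, 95 met 1 gene by symbol or synonym, 9 none, 5 several (dropped) and 2 were members. Named are all members with a peak, the 5 closest without (LHCB5, Lhca6, PSBP-2, PSBY and PSBQ-2), members by family, and up to 5 genes per list by the higher score of either library. That order sets scores of different libraries beside each other and serves only to choose names. LHB1B1, LHB1B2 and NPQ4, without a peak, were added after their values were seen. Alternatives were other flanks, scores, overlaps and single-gene assignment. No separate seed batches are stated.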

Additional observations from a re-analysis of the deposited data

How the results depend on the processing

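No paired analysis was possible because no result comes from a test and each cross-linker has 1 library. The planned search for promoter motifs was not run for want of sequences. A count was taken as changed when it moved by more than 1.5 times, and 25 of 48 recomputed values did, most of them because fewer peaks enter. The cause of the other changes was not tested. Against 7 members with a formaldehyde peak, gene bodies alone gave 3 and a score of 100 or more 4. The 1000 highest scoring peaks gave 2, and assignment to the nearest gene, chosen after seeing the data, 1. The shares of all protein-coding genes moved too, from 16.9% to 11.4%, 4.31%, 3.36% and 11.7% in turn. Against 17 with a glutaraldehyde peak, a score of 100 or more gave 6, the 1000 highest scoring peaks 3 and the nearest gene 11. All genes went from 25.9% to 6.6%, 4.69% and 18.0%. Against 20 with either, gene bodies gave 13, the score 9, the highest peaks 5 and the nearest gene 11, and leaving out 1 library gave 7 to 17. All genes went from 38.0% to 25.7% in gene bodies, 10.5% with the score and 7.83% with the highest peaks. With 1 library left out, 16.9% to 25.9% of all genes had a peak. By nearest gene the share of members, 25.0%, lay below that of all genes, whereas the main setting gave 45.5%, above the 38.0%. Against 4 with both, gene bodies gave 2, a flank of 2 kb 7, the score 1, the highest peaks 0 and the nearest gene 1. Here all genes went from 4.84% to 2.41%, 8.27%, 0.361%, 0.215% and 2.72%. Overlapping peaks gave 0 members at 1 bp and 0 at 50% of each, with 1.77% and 0.765% of all genes. Against 13 with a peak in the body, where all genes had 25.7%, the score gave 4 (7.0% of all) and the highest peaks 3 (5.22%). Leaving out 1 library gave 3 to 12 members with a peak in the body, and 11.4% to 16.7% of all genes. The count of members with a peak in either library or in the body thus rests on the glutaraldehyde library. The median formaldehyde score, 103 against 72.6 for all genes, was 63.2 in gene bodies, against 72.7 for all genes. With scores of 100 or more, median distances were 39718 bp (formaldehyde) and 19733 bp (glutaraldehyde) for members, against 45232.5 and 26073.5 bp for all genes. Glutaraldehyde shares of members lay above those of all protein-coding genes in gene bodies and with flanks of 500 bp, 1 kb and 2 kb. Unknown depth limits what the absence of a peak shows.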
